A study of Mus musculus with 4 samples.

Results

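The genes described here are 38 early lineage markers, genes that are used to recognise the first cell types arising from or beside the pluripotent epiblast. They were listed by name, with earlier results of these data known, and fall into 10 trophoblast, 10 primitive endoderm, 11 mesendoderm and 7 neural genes. All 38 were matched to a gene identifier, among 48526 genes in the count files. RNA-seq counts were compared between R1 ESCs, a widely used line of mouse embryonic stem cells, in the wild-type (WT) state and R1 ESCs of *Zfp296* CRISPR KO clone 2 (KO2), with 2 samples per group that the labels call biological replicates. *Zfp296* encodes a zinc finger protein that associates with the NuRD chromatin remodelling complex, and the comparison asks how its loss affects transcript levels in undifferentiated cells. KO2 is a single monoclonal line obtained from R1 ESCs after transfection of Cas9 with a guide RNA against the first exon, so effects of the knockout and of this clone cannot be told apart. Both lines are described in the methods as grown on gelatine with serum, LIF, the MEK inhibitor PD0325901 and the GSK3 inhibitor CHIR99021. The labels do not state whether the replicates came from separate cultures, and the p-values measure only the spread between these samples.

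In the early mouse embryo, the trophoblast and the primitive endoderm separate from the epiblast, and the epiblast then gives rise to mesoderm, definitive endoderm and neural ectoderm. ESCs correspond to the epiblast. The transcription factors of the other lineages are held at low levels in ESCs, and chromatin regulators such as NuRD take part in setting their level. Several of the listed genes are nevertheless transcribed in ESCs, so a marker's presence alone does not define a cell type.

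Total counts on genes were 2829914 and 4334499 in WT replicates 1 and 2 and 7470907 and 7437294 in KO2 replicates 1 and 2, and summed over replicates KO2 had 2.08 times the counts of WT. Depth therefore moved with the group, and a gene with few counts was more likely to be seen in KO2. A count of 3 corresponded to 1.12 and 0.709 CPM (counts scaled to a common library size, with TMM factors) in WT and to 0.380 and 0.401 CPM in KO2. *Zfp296* itself had raw counts of 31 and 31 in WT and 416 and 282 in KO2, so its RNA was higher in the knockout (log2 fold change 2.31, SE 0.284, edgeR adjusted p = 4.55e-05). Gene-level counts do not show whether the edited exon is intact or whether protein is made, and the labels could not be checked in this way. The methods state that the monoclonal lines were analysed by sequencing, which is not part of these count data. The 12 ESC identity genes were all measured, with summed levels of 6979 and 6864 CPM in WT and 7000 and 6580 CPM in KO2. Of 12 fibroblast markers, 5 were at 0 in every sample and the summed level was 4.47 to 14.2 CPM in WT and 8.88 to 11.5 CPM in KO2. Of 5 genes of 2-cell-like cells, 3 were matched, and their summed level was 1.86 to 3.54 CPM over the 4 samples.

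Most lineage markers were near zero in raw counts in both lines. No counts were found in any sample for 6 of the 38 markers, the primitive endoderm genes *Foxq1* and *Afp*, the mesendoderm genes *T* (Brachyury), *Mesp1* and *Lhx1*, and the neural gene *Hes5*. For such a gene, a count of 0 allows a level of up to the 3-count values given above. This limit is less certain for *Foxq1* and *Hes5*, whose annotated exons share 1164 and 433 bp with genes on the opposite strand. The strand setting of the counting is not stated. At least 10 counts were reached by 13 and 13 markers in the WT replicates and by 16 and 15 in the KO2 replicates. The filter on low counts, which was applied to all genes without reference to the lineage lists, kept 16 markers for testing and left 22 that are described by their counts alone. The plot of raw counts shows how the markers split into these levels.

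**Figure D1:**
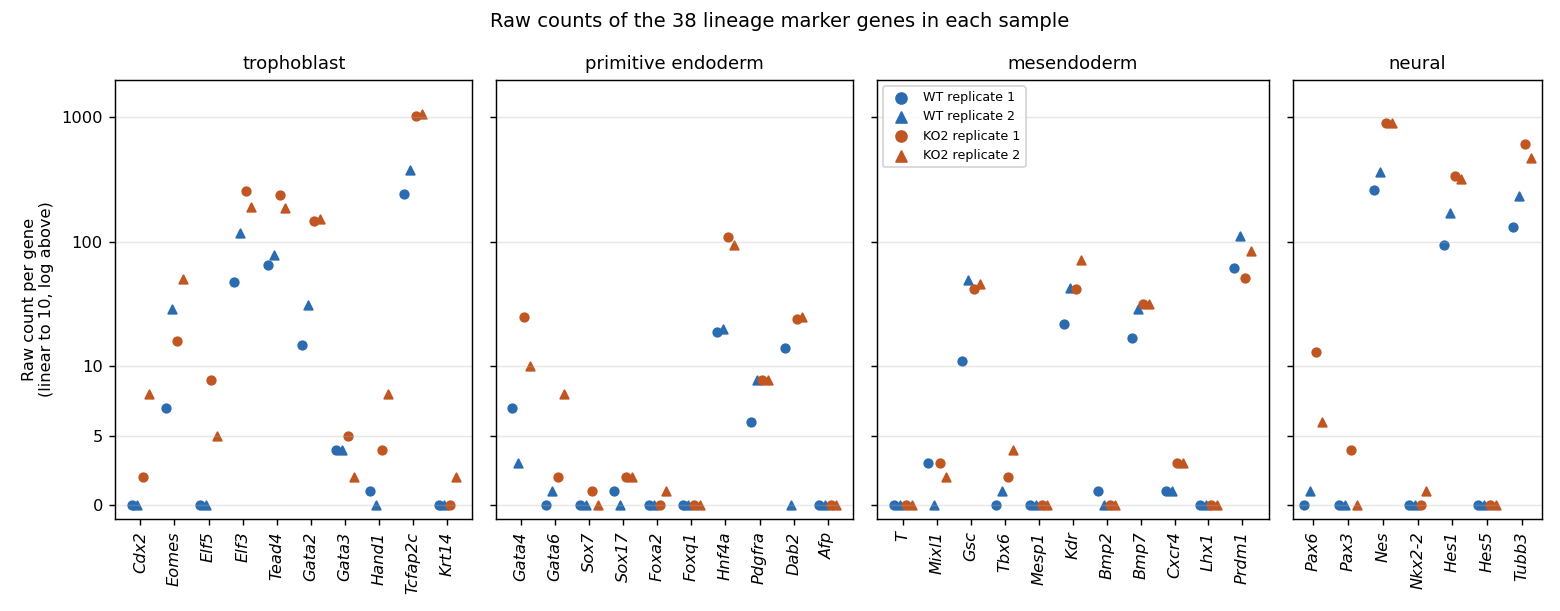
Raw read counts per gene (vertical axis, linear to 10 and logarithmic above) of the 38 markers in the 2 WT and 2 KO2 replicates, by lineage. Of these, 6 lie at 0 in every sample, and *Tcfap2c*, *Nes* and *Tubb3* have the highest counts.

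Among the 22 untested markers, no WT sample had more than 4 counts for any gene and no KO2 sample more than 13. Counts were found only in KO2 for 7 of them, *Cdx2*, *Elf5*, *Krt14*, *Sox7*, *Foxa2*, *Pax3* and *Nkx2-2*, and only in WT for 1, *Bmp2*. Counts in both lines were found for the 8 others, *Gata3*, *Hand1*, *Gata6*, *Sox17*, *Mixl1*, *Tbx6*, *Cxcr4* and *Pax6*. The counts of the 22 genes came to 11 and 8 for WT, against 50 and 52 for KO2, in the separate samples. The ratio of KO2 to WT was thus 5.37 for these markers, against 2.40 for the summed counts of all 35643 untested genes and 2.08 for all genes. Of the 22 markers, 27.3% were at 0 in every sample, against 64.9% of all untested genes. Among those with any count, 7 of 16 markers (43.8%) had counts only in KO2, against 37.1% of 12514 genes. These sums rest on 19 counts in WT and 102 in KO2 and were not tested.

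Of the untested trophoblast genes, *Cdx2*, a regulator of trophectoderm identity, was at 0 in both WT samples and had 2 and 8 counts in KO2. *Elf5*, a transcription factor of trophoblast stem cells, was likewise at 0 in WT and had 9 and 5 counts in KO2. When all genes with at least 1 count were fitted with edgeR, the unadjusted p was 0.118 for *Cdx2* and 0.0630 for *Elf5*, with adjusted p = 0.608 and 0.523. Neither gene therefore differed beyond the spread that the fit assigned to such low counts. *Hand1* and *Gata3* stayed at 8 counts or fewer, and the keratin gene *Krt14* had 2 counts in 1 KO2 sample only. Of the untested primitive endoderm genes, *Gata6*, which with *Gata4* drives this lineage, had a single count in WT against 2 and 8 in KO2, and *Sox17*, *Sox7* and *Foxa2* had at most 2 counts in any sample. The untested mesendoderm genes *Mixl1*, *Tbx6*, *Bmp2* and *Cxcr4* did not exceed 4 counts in any sample. Of the untested neural genes, *Pax6*, a regulator of neural progenitors and eye development, was the only one to reach 10 counts, with 0 and 1 in WT and 13 and 6 in KO2 (unadjusted p = 0.0658 and adjusted p = 0.526 without a filter, edgeR). The annotated exons of *Pax6* share 5542 bp with *Elp4* on the opposite strand. The strand setting of the counting is not stated, so counts of these 2 genes cannot be assigned with certainty.

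Of the 16 tested markers, *Gata2* and *Tcfap2c* were higher in KO2, *Prdm1* was lower, and 13 did not pass the test (edgeR, adjusted p of 0.05 over all 12883 tested genes). The 3 genes called are read against 5.64% of all tested genes called in either direction, 2.61% higher and 3.04% lower. Both KO2 samples lay above both WT samples for 7 of the 16 markers and below them for 3, against 25.4% and 23.4% of all tested genes. Of these 3, *Pdgfra* had at most 9 counts per sample and passed the filter only through WT, where it is higher. The log2 fold change was positive for 10 markers and negative for 6, with a median of 0.33 over the 16 that passed the filter, against a median of 0.01 and 51.4% positive over all tested genes. An unadjusted p under 0.05 was found for 6 of the 16, the 3 called genes and *Hnf4a*, *Nes* and *Tubb3*. The share of all tested genes at this unadjusted level was not counted. Such numbers, here and below, are therefore not read as an excess. Since these are bulk samples, a change in RNA per cell and a change in the number of expressing cells cannot be told apart.

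**Figure D2:**
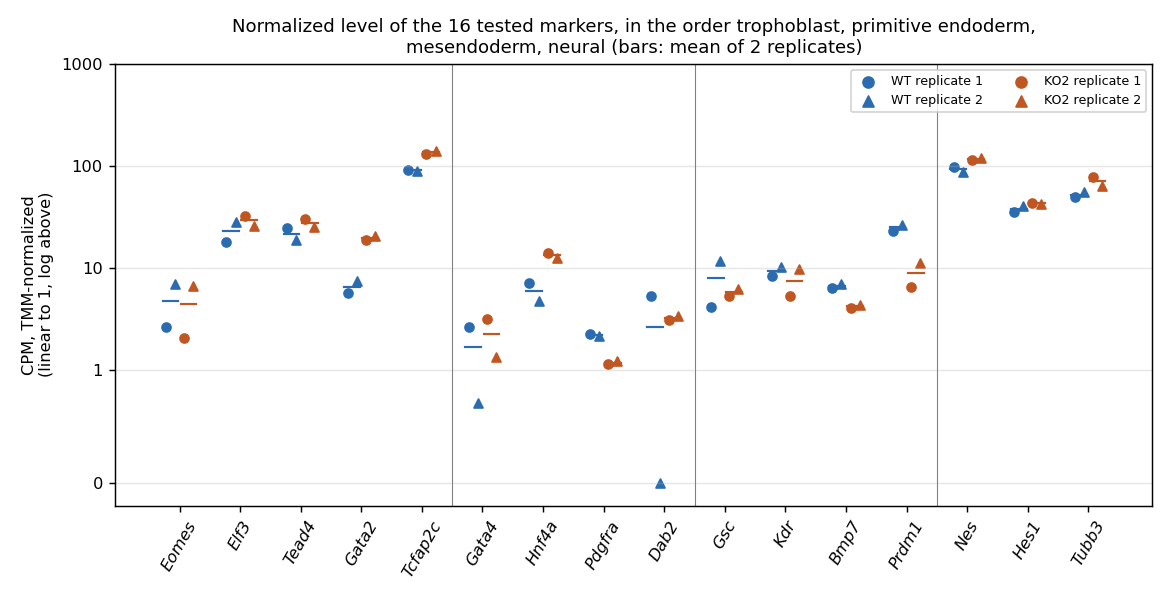
Normalized level in CPM (vertical axis, linear to 1 and logarithmic above) of the 16 tested markers in each replicate, with horizontal bars for the mean of 2 replicates, ordered by lineage. Both KO2 samples lie above both WT samples for 7 markers and below them for 3, against 25.4% and 23.4% of all tested genes. *Eomes*, *Gata4*, *Dab2* and *Gsc* differ by 2-fold or more between replicates of a line.

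Among the tested trophoblast markers, *Gata2* and *Tcfap2c* rose in KO2, and *Eomes*, *Elf3* and *Tead4* did not pass the test. *Gata2* (ENSMUSG00000015053, mm9 chr6:88143885-88157024, plus strand) encodes a zinc finger transcription factor of trophoblast giant cells and of blood progenitors. Its raw counts were 15 and 31 in WT and 148 and 153 in KO2. Its level was 5.59 and 7.33 CPM for WT against 18.8 and 20.5 CPM for KO2, so the lowest KO2 sample was far above the highest WT sample. The mean rose from 6.46 ± 1.23 to 19.6 ± 1.19 CPM (SD, n = 2 samples in each line), and the fit gave a log2 fold change of 1.56, or 2.96-fold (SE 0.345, 95% interval 0.84 to 2.29, edgeR adjusted p = 0.0103). *Tcfap2c* (ENSMUSG00000028640, mm9 chr2:172375093-172384122, plus strand) encodes the transcription factor AP-2 gamma, which maintains the trophectoderm and also acts in germ cell precursors. It was well measured, with raw counts of 244 and 378 in WT and 1021 and 1054 in KO2. Its level was 90.9 and 89.3 CPM in WT and 129 and 141 CPM in KO2, without overlap. This is a smaller change, from 90.1 ± 1.14 to 135 ± 8.07 CPM, with a fitted log2 fold change of 0.59, or 1.50-fold (SE 0.132, 95% interval 0.31 to 0.86, edgeR adjusted p = 0.0121).

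*Eomes*, a T-box factor of trophoblast stem cells and of the primitive streak, varied more between replicates than between lines. It had 2.61 and 6.85 CPM in WT and 2.03 and 6.68 CPM in KO2 (log2 fold change -0.25, 95% interval -1.54 to 1.04, edgeR adjusted p = 0.878). *Tead4*, the DNA-binding partner of YAP that acts upstream of *Cdx2* in the trophectoderm, had 24.2 and 18.7 CPM in WT and 30.2 and 24.9 CPM in KO2. The KO2 samples were above the WT samples by a small margin, and the log2 fold change of 0.38 did not pass (95% interval -0.13 to 0.90, edgeR adjusted p = 0.424). *Elf3*, an epithelial ETS factor, had 17.9 and 27.9 CPM in WT and 32.5 and 25.7 CPM in KO2 (log2 fold change 0.31, 95% interval -0.22 to 0.83, edgeR adjusted p = 0.552). Its groups overlapped.

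The mesendoderm marker *Prdm1* fell in KO2. *Prdm1* (ENSMUSG00000038151, mm9 chr10:44156983-44248307, minus strand) encodes BLIMP1, a transcriptional repressor needed for primordial germ cell specification that is also expressed in the visceral endoderm and the anterior mesendoderm. Its raw counts were 62 and 112 in WT and 51 and 84 in KO2, although the KO2 samples held more counts in all. Its level was 23.1 and 26.5 CPM in WT and 6.47 and 11.2 CPM in KO2, so the highest KO2 sample was below the lowest WT sample. The mean went from 24.8 ± 2.38 to 8.85 ± 3.37 CPM, and the fit gave a log2 fold change of -1.50, or 2.83-fold lower (SE 0.315, 95% interval -2.16 to -0.84, edgeR adjusted p = 0.00702). The KO2 replicates of this gene differed from each other more than its WT replicates.

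The promoter windows of *Gata2* and *Prdm1* are shown since they belong to the markers that changed most, in opposite directions. They are the 250 bases upstream of the annotated starts in RefSeq for GRCm38.p6, a later build than mm9, and *Gata2* has starts at more than 1 position there. Whether these starts match the ends of the mm9 gene records was not checked, and starts annotated elsewhere were not searched. The windows were searched on both strands for TTAGGG, the telomere repeat unit (CCCTAA on the other strand), and matches would be in capitals. None of the 3 windows holds it. The regions are chr6:88193641-88193890 on the plus strand for the upstream *Gata2* start, chr6:88198414-88198663 on the plus strand for the other *Gata2* start, and chr10:44458749-44458998 on the minus strand for *Prdm1*, each printed 5′ to 3′ on the strand of the gene.
Gata2, upstream start: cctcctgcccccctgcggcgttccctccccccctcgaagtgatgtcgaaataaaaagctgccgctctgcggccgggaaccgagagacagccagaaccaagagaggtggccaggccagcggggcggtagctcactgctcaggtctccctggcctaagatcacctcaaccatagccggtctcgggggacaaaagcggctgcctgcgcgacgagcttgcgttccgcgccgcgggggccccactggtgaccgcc
Gata2, downstream start: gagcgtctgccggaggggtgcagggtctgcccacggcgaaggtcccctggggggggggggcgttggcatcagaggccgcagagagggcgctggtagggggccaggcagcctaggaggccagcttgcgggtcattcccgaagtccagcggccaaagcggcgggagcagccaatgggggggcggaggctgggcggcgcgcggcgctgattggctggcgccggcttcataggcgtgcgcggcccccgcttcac
Prdm1: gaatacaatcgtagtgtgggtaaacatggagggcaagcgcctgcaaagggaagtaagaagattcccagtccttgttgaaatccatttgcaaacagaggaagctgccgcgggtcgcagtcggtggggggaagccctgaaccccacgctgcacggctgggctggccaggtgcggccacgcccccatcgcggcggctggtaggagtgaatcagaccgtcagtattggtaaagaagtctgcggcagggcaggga
All 3 windows are rich in G and C, at 67.2% and 74.0% for *Gata2* and 59.2% for *Prdm1*. The motif occurs in 9.32% of all 32851 windows of this length in the table. Of the 38 markers, 25 had windows there, and 4 of their 32 windows (12.5%) held it, those of *Elf5*, *Hnf4a*, *Mesp1* and *Nes*. A match in such a window is not evidence of binding.

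The tested primitive endoderm markers gave no call with edgeR, and 1 of the 4, *Hnf4a*, had an unadjusted p under 0.05 with either tool. DESeq2 did not call *Hnf4a* and gave no adjusted p for *Gata4*, *Pdgfra* and *Dab2*, so it could not call these. *Hnf4a* encodes a nuclear receptor of the visceral endoderm and liver. Its raw counts were 19 and 20 in WT and 110 and 94 in KO2, and its level was 7.08 and 4.73 CPM in WT and 13.9 and 12.6 CPM in KO2. Both KO2 samples were above both WT samples, with a log2 fold change of 1.22 (SE 0.401, 95% interval 0.38 to 2.06), but the adjusted p of 0.0863 (edgeR) did not pass and was 0.249 with DESeq2. *Gata4*, a zinc finger factor that drives the primitive endoderm, had raw counts of 7 and 3 in WT and 25 and 10 in KO2. Its replicates differed by more than 2-fold in each line, and the interval of its log2 fold change ran from -1.12 to 2.39. *Pdgfra*, a receptor tyrosine kinase of primitive endoderm cells, had 6 and 9 counts for WT against 9 and 9 for KO2, and its level went from 2.18 ± 0.0774 to 1.17 ± 0.0437 CPM (log2 fold change -0.88, 95% interval -2.49 to 0.73, edgeR adjusted p = 0.590). *Dab2*, an endocytic adaptor protein of the endoderm, had 14 and 0 counts for WT against 24 and 25 for KO2. Its WT replicates thus disagreed on whether the gene was detected at all, and another annotated record of *Dab2* shares 1374 bp of its exons, so its value is uncertain. The summed level of all 10 primitive endoderm markers was 17.5 and 7.80 CPM in WT and 21.9 and 19.9 CPM in KO2.

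The other tested mesendoderm markers were *Gsc*, *Kdr* and *Bmp7*, and none passed the test. All 4 tested genes of this lineage had a negative log2 fold change, with a median of -0.62, while 51.4% of all tested genes had a positive one. *Gsc* turned to 0.48 without WT replicate 2 and *Kdr* to 0.043 without KO2 replicate 1. *Prdm1* and *Bmp7* stayed negative whichever sample was left out. *Gsc*, a homeobox gene of the organizer, had 4.10 and 11.6 CPM in WT and 5.33 and 6.15 CPM in KO2, and both KO2 samples lay between the WT samples. *Kdr*, the VEGF receptor of blood and endothelial precursors, had 8.20 and 10.2 CPM in WT and 5.33 and 9.62 CPM in KO2, with overlapping groups (log2 fold change -0.33, 95% interval -1.22 to 0.56). *Bmp7*, a secreted ligand of the TGF-beta family, had 6.34 and 6.85 CPM in WT and 4.06 and 4.28 CPM in KO2. Its groups did not overlap, yet the log2 fold change of -0.67 did not pass (95% interval -1.67 to 0.33, edgeR adjusted p = 0.489). The 11 mesendoderm markers summed to 43.6 and 55.5 CPM in WT and 22.2 and 32.5 CPM in KO2, and *Prdm1* made up most of that difference.

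The tested neural markers were *Nes*, *Hes1* and *Tubb3*, and none passed with edgeR or DESeq2. Of the 3, an unadjusted p under 0.05 was reached by 2 with edgeR and by 1 with DESeq2. *Nes* encodes the intermediate filament nestin and is among the highest of the 38 markers, with 97.6 and 86.5 CPM in WT and 113 and 120 CPM in KO2. Its log2 fold change was 0.35 (SE 0.136, 95% interval 0.06 to 0.63, edgeR adjusted p = 0.158). *Tubb3*, the neuronal beta-tubulin, had 48.8 and 55.5 CPM in WT and 76.7 and 63.5 CPM in KO2, with a log2 fold change of 0.42 (SE 0.166, 95% interval 0.07 to 0.77, edgeR adjusted p = 0.164). *Hes1*, a repressor that responds to Notch signalling, was nearly level at 35.4 and 39.9 CPM in WT and 42.9 and 42.5 CPM in KO2 (log2 fold change 0.17, 95% interval -0.22 to 0.56, edgeR adjusted p = 0.676). For all 3 genes the KO2 samples were above the WT samples, as for 25.4% of all tested genes. The intervals leave room only for changes smaller than 2-fold. In a further list of neural genes, described below, 6 were tested. Their log2 fold change was positive for 2 and negative for 4, with a median of -0.34.

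**Figure D3:**
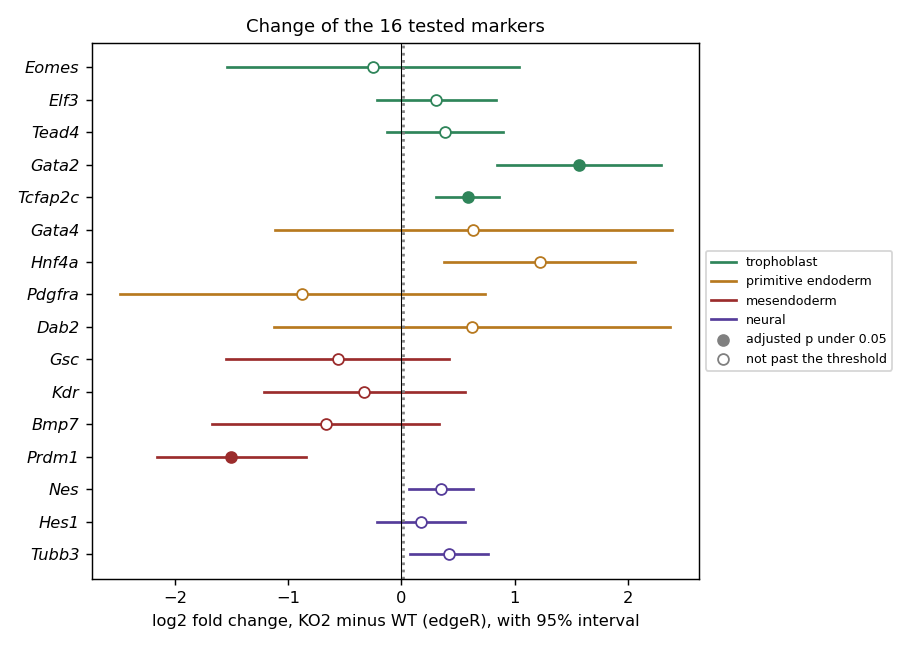
Log2 fold change of KO2 minus WT (horizontal axis, points) with 95% intervals (lines) for the 16 tested markers, coloured by lineage, with filled points for adjusted p under 0.05 and a dotted line at the median of all tested genes. *Gata2* at 1.56, *Tcfap2c* at 0.59 and *Prdm1* at -1.50 are the filled points, and the widest intervals belong to *Gata4*, *Dab2* and *Pdgfra*.

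To compare levels between genes, CPM were divided by the length of the annotated exons in kb. In WT, *Tubb3* was highest at 27.9 CPM per kb, followed by *Tcfap2c* at 24.5, *Hes1* at 18.5, *Nes* at 14.3 and *Elf3* at 11.4 CPM per kb. These 5 genes lay between the 61.4 and 80.7 percentile of 12067 tested genes with a known length. *Gsc*, *Tead4* and *Prdm1* followed at 6.20, 5.96 and 4.51 CPM per kb, and *Gata2* at 1.93, *Bmp7* at 1.64, *Kdr* at 1.26, *Hnf4a* at 1.18 and *Eomes* at 1.14 CPM per kb were lower. *Gata4*, *Dab2* and *Pdgfra* were lowest at 0.424, 0.355 and 0.324 CPM per kb. In this order, WT values of neighbours overlapped from *Nes* to *Tead4*, between *Gata2* and *Bmp7*, and from *Kdr* to *Pdgfra*, so the order within these runs is not resolved. The ESC identity genes ranged from 39.3 CPM per kb for *Esrrb* to 1512 CPM per kb for *Dppa5a* in WT, so every tested lineage marker was below the lowest of them. In KO2, *Tcfap2c* reached 36.7 and *Gata2* 5.85 CPM per kb, and *Prdm1* went down to 1.61 CPM per kb.

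Further genes of each lineage were examined in lists that do not include the 38 markers. These lists were also chosen with earlier results of these data known and are no independent support. Their calls are read against 2.61% of all tested genes called higher and 3.04% called lower. Of 18 other trophoblast genes, 8 were tested, of which 2 rose, none fell and 6 did not pass. *Krt8*, a keratin of simple epithelia and trophectoderm, had raw counts of 4 and 12 in WT and 108 and 102 in KO2 (2.16 ± 0.951 to 13.7 ± 0.0430 CPM, log2 fold change 2.56, SE 0.492, edgeR adjusted p = 0.00373). *Fgfr2*, the receptor through which FGF4 maintains trophoblast stem cells, had raw counts of 15 and 17 in WT and 327 and 268 in KO2 (4.80 ± 1.11 to 38.6 ± 3.99 CPM, log2 fold change 3.05, SE 0.312, edgeR adjusted p = 5.35e-06). Both genes are expressed in several epithelia and are not specific to trophoblast. The annotated record of *Fgfr2* is long, at mm9 chr7:137305965-140315033. Exon overlaps with other genes were not checked for these lists, so the source of its counts is less certain.

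Of 20 other primitive endoderm genes, 11 were tested, of which 1 rose, 2 fell and 8 did not pass. Over all tested genes, 2.61% were called higher and 3.04% lower. *Lrp2*, the endocytic receptor megalin, rose from 28.2 ± 0.286 to 58.8 ± 3.29 CPM (log2 fold change 1.06, SE 0.184, edgeR adjusted p = 0.00161). *Lamb1-1*, a laminin chain of the basement membrane, fell from 60.4 ± 3.17 to 13.8 ± 2.71 CPM (log2 fold change -2.13, SE 0.211, edgeR adjusted p = 3.79e-06). *Apoe*, a lipid transport protein made by the visceral endoderm and many other cells, fell from 231 ± 14.3 to 131 ± 14.7 CPM (log2 fold change -0.81, SE 0.125, edgeR adjusted p = 0.000536). The called genes of this list thus moved in both directions.

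No gene was called by edgeR or DESeq2 among the 5 tested of 20 other mesendoderm genes, the 6 tested of 26 other neural genes or the 6 tested of 10 primed epiblast genes. DESeq2 gave no adjusted p for *Chrd*, *Isl1*, *Lhx2* and *Pou3f1* among them, so it could not call these. In each of these 3 lists, 1 gene had an unadjusted p under 0.05 with edgeR. One of the neural genes, *Sox1*, was not matched to an identifier. Of the 12 ESC identity genes, 1 fell and 11 did not pass with edgeR, while DESeq2 called 2. The gene that fell was *Sox2*, a pluripotency factor that is also expressed in neural progenitors, with 839 ± 47.2 CPM in WT and 486 ± 4.39 CPM in KO2 (log2 fold change -0.79, SE 0.102, edgeR adjusted p = 7.84e-05). The other gene called by DESeq2 was *Dppa5a*, with a log2 fold change of 0.35 in edgeR (adjusted p = 0.0669) and an adjusted p of 0.0270 in DESeq2.

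The calls of *Gata2*, *Tcfap2c* and *Prdm1* were the same with RLE normalization, with DESeq2 (adjusted p = 0.0208, 0.0164 and 0.0132) and with the replicate number as a block. They depended on the samples and the filter used. Without WT replicate 1, none of the 3 passed the test (edgeR adjusted p = 0.0686, 0.0684 and 0.0563), and 7 tested markers then had an unadjusted p under 0.05. Without WT replicate 2, only *Gata2* passed (0.0321, edgeR adjusted p), and without KO2 replicate 2 *Tcfap2c* was lost (0.0713). Without a filter on low counts, none of the 3 passed either (edgeR adjusted p = 0.128, 0.152 and 0.176). Scaling to ERCC spike-ins also lost the call of *Tcfap2c*, with a log2 fold change of 0.68 and a wider SE of 0.343. The direction of each was the same in every one of these fits, with log2 fold changes of 1.42 to 1.81 for *Gata2*, 0.52 to 0.65 for *Tcfap2c* and -1.95 to -1.15 for *Prdm1* when 1 sample was left out.

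**Figure D4:**
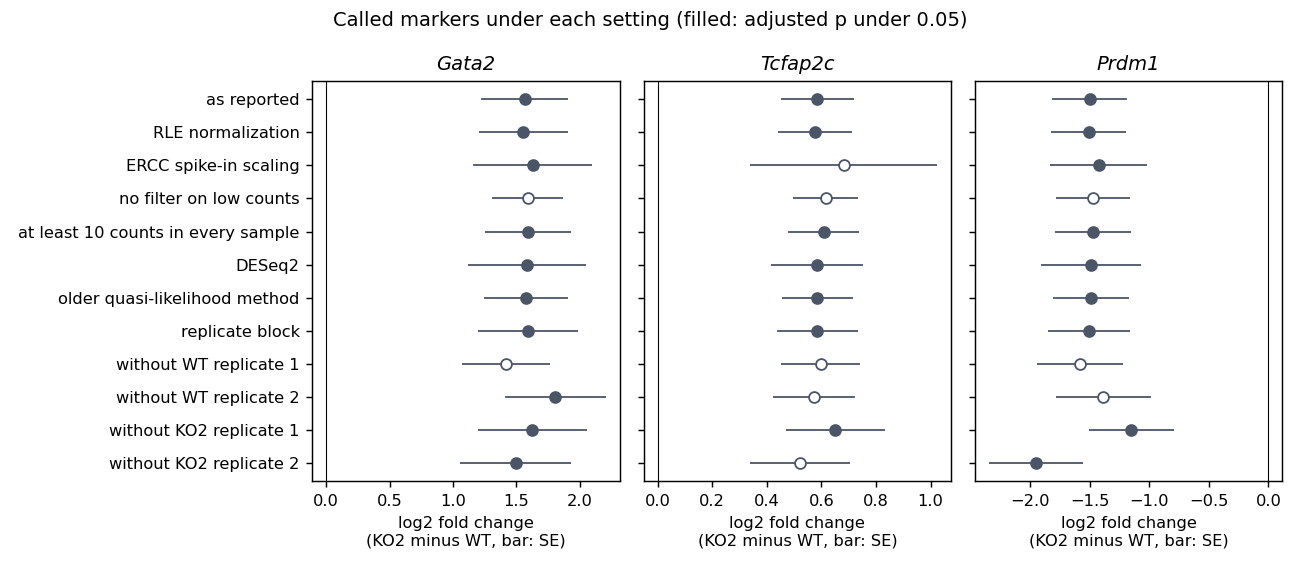
Log2 fold change of KO2 minus WT (horizontal axes, points, bars are SE) of *Gata2*, *Tcfap2c* and *Prdm1* as reported and under each alternative normalization, filter, test and choice of samples, with filled points for adjusted p under 0.05. All points of a gene lie on the same side of 0, and *Tcfap2c* passes the test least often.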

How the data were processed

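Per the labels, HISAT2 and HTSeq served for mapping to mm9 and for counting per gene, and the authors deposited the raw counts of each sample without normalization. The methods describe rRNA depletion and strand-specific libraries, while versions, annotation and counting options are not given in the sources used here. Rows naming no gene (5) and ERCC spike-ins (92) were left out of library sizes.

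Counts were analysed with edgeR 4.0.16 in R 4.3.3 (limma 3.58.1): filterByExpr (minimum count 10, total 15), TMM factors, glmQLFit and glmQLFTest (legacy=FALSE) with group as the only term, and Benjamini-Hochberg adjustment over 12883 genes at 0.05. The study itself used DESeq2, run here as an alternative (1.42.0). The fit was tested on simulated data. Lengths and mm9 coordinates came from GENCODE M1, promoters from RefSeq, and the searched motif from the study's motif analysis. The 38 markers and all lists were chosen with earlier results of these data known, and support no test of their own. All 38 markers are accounted for. Per-sample values were given for markers passing the filter or reaching 10 counts, the called genes of other lists were named (at most 4 per direction), and promoters were shown for the called markers matched in the RefSeq table (*Gata2* and *Prdm1*, not *Tcfap2c*).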

Additional observations from a re-analysis of the deposited data

How the results depend on the processing

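Of 170 values of single markers under the alternatives, 153 kept their direction and their side of the threshold, 10 kept the direction but lost the call, and 7 changed sign. The sign changes concern 5 uncalled markers of low count, *Eomes* (0.72 without WT replicate 2 and 0.37 without KO2 replicate 1), *Gata4* (-0.20 and -0.11 in the same fits), *Dab2* (-0.71) and *Gsc* (0.48), both without WT replicate 2, and *Kdr* (0.043 without KO2 replicate 1). Their log2 fold changes without 1 sample ranged from -1.34 to 0.72 for *Eomes*, -0.20 to 1.65 for *Gata4*, -0.71 to 7.39 for *Dab2*, -1.01 to 0.48 for *Gsc* and -0.82 to 0.043 for *Kdr*. The value of 7.39 is set against a WT sample with 0 counts and is no bound. DESeq2 gave no adjusted p for *Gata4*, *Pdgfra* and *Dab2*, and their DESeq2 values are counted as uncalled among the 153. Of the markers, 2 higher and 1 lower were called. With ERCC scaling 1 was higher, without a filter on low counts 0 were higher and 0 lower (edgeR; 6 with an unadjusted p under 0.05, and 3 called by DESeq2), and leaving out 1 sample gave 0 to 2 higher and 0 to 1 lower. Over all genes, 336 were higher and 391 lower. These counts were 90 and 73 with ERCC scaling and 29 and 32 without a filter. DESeq2 gave 192 higher and 264 lower, and leaving out 1 sample gave 122 to 341 higher and 148 to 350 lower, the fewest without WT replicate 1. Of the other lineage genes, 3 were higher and 2 lower. Without a filter 1 was higher and 1 lower, and with ERCC scaling 1 was lower. The log2 fold change of *Zfp296* was 2.35 without a filter, with an edgeR adjusted p of 0.0570. Without a filter, far more genes of few counts were fitted and adjusted for. The cause of the shifts under any of these settings was not tested. ERCC scaling moved the median log2 fold change of all genes from 0.01 to 0.09.

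The labels do not say that equal replicate numbers pair the samples. Deviations of equally numbered samples correlated at -0.0095 over 12883 genes. With only 2 pairs, this cannot decide whether the samples were paired. With the replicate block, 476 genes were higher and 474 lower, and the same 3 markers were called, *Gata2* at 1.59, *Tcfap2c* at 0.58 and *Prdm1* at -1.51. Fits without 1 sample leave a lone sample in its line, which is assumed to vary like the other line. With 2 samples per line, 1 clone and deeper KO2 libraries, markers of few counts could not be compared.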
